A study of Mus musculus with 6 samples.

Results

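The AP-1 genes Fos, Fosb, Fosl1, Fosl2, Jun, Junb, Jund, Atf3, Maff and Batf were followed in fat from NOD mice, which develop autoimmune diabetes. All 10 genes were represented, by 14 of the 45101 probe sets on each array, and 4 of them by more than 1 probe set. The probe set with the highest mean signal over the 6 arrays stood for its gene, out of 18193 genes with a name. The study holds 3 groups of 2 arrays each. The normoglycemic group (NOR) was fat of 10-week-old NOD females with normal blood glucose. The diabetic group (DIA) was fat of NOD mice with glucose above 300 mg/dl on 3 days in a row. The treated group (AAT) was fat of NOD mice given alpha-1-antitrypsin, a serum inhibitor of proteases, whose diabetes had stably reverted without need of insulin. Age and sex are labelled only for NOR. The labels name neither the fat depot nor the dose, nor is it stated that paired arrays were different mice, so the p-values reflect the scatter among these arrays alone, and that scatter may be technical.

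AP-1 is a family of transcription factors that bind DNA as pairs, held together by a leucine zipper next to a basic DNA-binding region. Fos proteins need a partner, usually a Jun protein, whereas Jun proteins can also pair with each other. Fos is the textbook immediate early gene, transcribed within minutes of a stimulus into a short-lived mRNA, and Jund is the member with the steadiest expression. Of the related members, Atf3 is induced by cellular stress, Maff is a small Maf protein without an activation domain, and Batf pairs with Jun proteins in lymphocytes.

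The 250 bases before the transcription start were taken for 9 members from the RefSeq promoter table (mouse build GRCm38.p6), to set their motifs side by side. They were searched on both strands for TGACG, the core of the cyclic AMP response element, for its full form TGACGTCA (which contains TGACG), for the AP-1 site TGANTCA, and for the CArG box bound by serum response factor. TGACG was found in 6 of the 9 members and in 19.8% of the 27025 genes of the table. TGACGTCA was found in 1 member (Maff) and in 1.77% of all genes. The AP-1 site was found in 0 members and 7.82% of genes, and the CArG box in 0 members and 1.62%. Bases farther from the start, or after it, were not searched, so a count of 0 holds for this window only. The window of Fos is printed whole, since Fos carried the largest differences. It lies at chr12:85473640-85473889 on the plus strand and holds TGACG at bases -129 to -125 and -66 to -62 before the start (capitals).
Fos: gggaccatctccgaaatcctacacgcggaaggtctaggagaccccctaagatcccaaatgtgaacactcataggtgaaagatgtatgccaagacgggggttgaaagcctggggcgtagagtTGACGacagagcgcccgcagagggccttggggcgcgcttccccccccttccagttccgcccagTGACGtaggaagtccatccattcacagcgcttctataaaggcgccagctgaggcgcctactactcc

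The matches of the other members are shown with their neighbouring bases, the match in capitals, to set them beside those of Fos. Those of Fosb, Junb and Batf are on the strand of the gene. That of Maff, TGACGTCA, is on both strands, and that of Atf3 is on the opposite strand, read here as CGTCA. The matches begin at base -60 in Fosb, -106 in Junb, -7 in Atf3, -29 in Maff and -98 in Batf. Maff has 3 listed starts; its stretch is from the window of the second, and that of the third also holds TGACG on the opposite strand, at -122.
Fosb: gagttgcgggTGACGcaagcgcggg
Junb: ttcctgacagTGACGcgagccgcct
Maff: gctggggcggTGACGTCActgcatgact
Atf3: aatagcattaCGTCAgc
Batf: tctaacttgtTGACGtttccgccca
The windows of Fosl2, Jun and Jund held none of these 4 motifs. Of the members with TGACG, Fos, Junb and Maff had groups without overlap in some comparison, and Fosb, Atf3 and Batf had not. Fosl2, Jun and Jund, without TGACG, also had groups without overlap in some comparison. Groups without overlap were common among the 13058 genes tested. In diabetic against normoglycemic fat 20.2% of these genes were higher and 24.5% lower without overlap. The shares were 17.9% and 15.9% in AAT-treated against diabetic fat and 16% and 16.1% in AAT-treated against normoglycemic fat. The share of genes without overlap in some comparison was not counted. A link between motif and difference was not tested. A match is a stretch of letters and was not tested as a binding site.

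Array quality was uneven. For the beta-actin control, the 3' signal divided by the 5' signal, which rises with degraded or incompletely copied RNA, was 3.63 and 4.30 in NOR, 15.2 and 15.5 in DIA and 9.08 and 5.87 in AAT. The beta-actin ratio went with the groups, so a fit with it as a covariate separates its effect poorly from that of the group. The SE of such a fit are wide. For the GAPDH control the same ratio was 0.91 and 0.95 in NOR, 2.46 and 4.63 in DIA and 2.31 and 0.79 in AAT. By GAPDH the AAT-treated arrays were split: AAT-treated 1 read close to diabetic 1, and AAT-treated 2 had the lowest ratio. The GAPDH ratio was not used as a covariate. The hybridisation controls, added in fixed amounts, averaged 128547 on normoglycemic 1 and 86286 on AAT-treated 2, while the remaining 4 arrays read 25159 to 48494, although all 6 have the same trimmed mean signal. Adipocyte markers were abundant on all arrays, with 8 of 9 listed genes measured and a summed signal of 188330 to 470501. The lowest sum was on diabetic 1, which also had the lowest Fos signal. All 8 were lower in AAT-treated than normoglycemic fat (median −0.48 on the log2 scale), where 48% of all genes were higher. Plin4, at −0.0041, hardly differed. Of the 8, 4 were lower without overlap between the groups (16.1% of genes), and 0 had an unadjusted p under 0.05. The part of these markers in the values that follow was not tested.

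**Figure D1:**
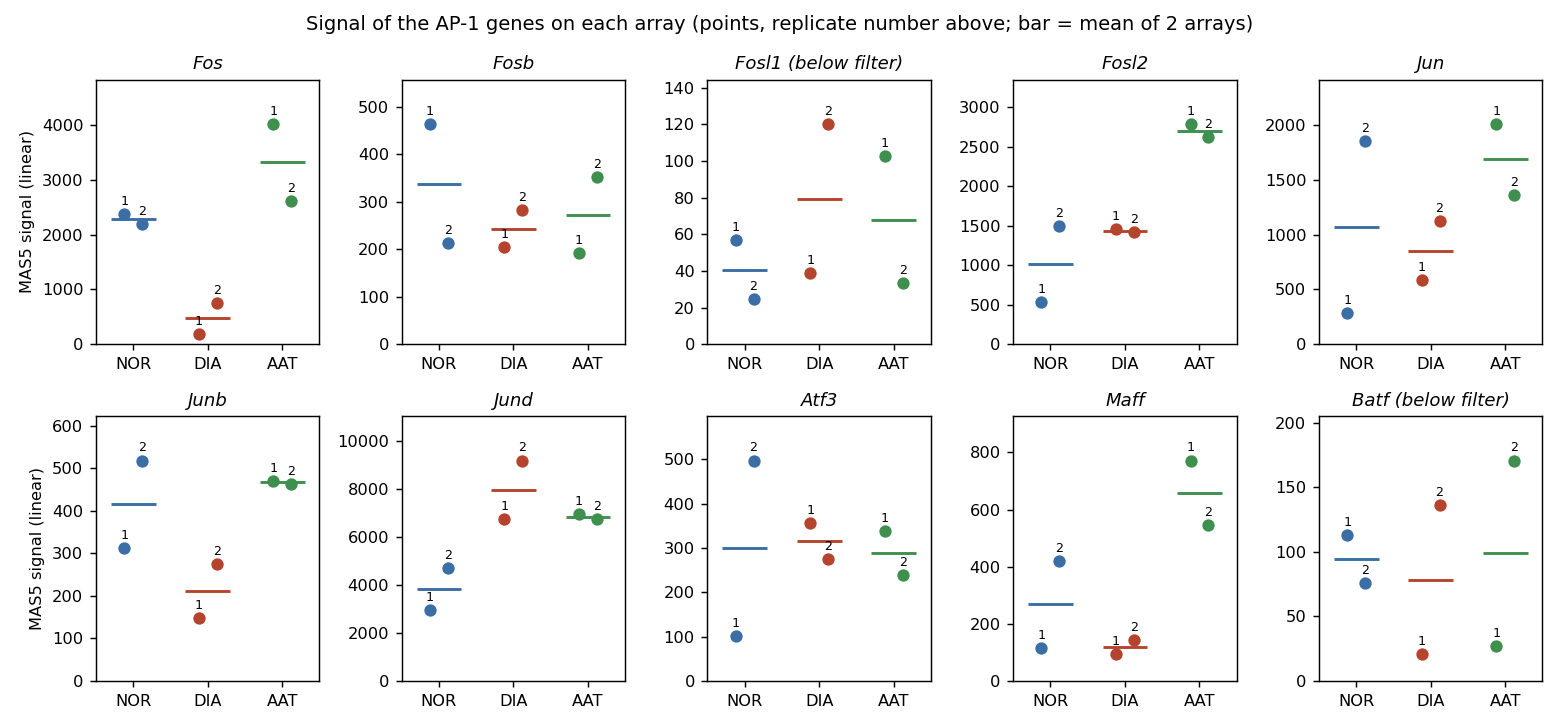
MAS5 signal (linear scale, y axis from 0) of the 10 AP-1 genes on the 6 arrays, grouped as normoglycemic (NOR), diabetic (DIA) and AAT-treated (AAT); points are arrays with their replicate number and bars are means of 2 arrays. Fos lay at 189.5 and 751 in diabetic fat and at 2199.99 or above on the other 4 arrays.

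Fos, whose protein pairs with Jun proteins, was the member that set diabetic fat apart most. Its signal was 2383 and 2199.99 in NOR, 189.5 and 751 in DIA and 4021 and 2618 in AAT. Both diabetic arrays lay below all 4 others, and both AAT-treated arrays lay above both normoglycemic ones. In these bulk samples fewer cells that express a gene and less of its RNA per cell cannot be told apart. On the log2(signal + 74) scale used for all differences, Fos was lower in diabetic than normoglycemic fat by −2.34 ± 0.52 (SE), a 5.07-fold difference (limma, adjusted p = 0.459). In AAT-treated against diabetic fat it differed by 2.83 ± 0.52, or 7.12-fold (adjusted p = 0.395), the smallest unadjusted p of any member in any comparison and rank 17 among 13058 genes. These comparisons share the diabetic arrays. AAT-treated and normoglycemic fat differed by 0.49 ± 0.52 (adjusted p = 0.926). Without diabetic 1, which had the lowest Fos signal, the diabetic difference was −1.52 and that of AAT-treated against diabetic fat was 2.01. The beta-actin ratio was highest on the same diabetic arrays where Fos was lowest; with it as a covariate Fos differed by −4.06 ± 2.20 (adjusted p = 0.588) and by 3.77 ± 1.28 (adjusted p = 0.509) in these comparisons, of which the first no longer had an unadjusted p under 0.05.

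Fosb, a close relative of Fos that shares its immediate early induction, did not follow it. Its signal was 464 and 212 in NOR, 205 and 282 in DIA and 193 and 352 in AAT. The ranges of all 3 groups overlapped, and the differences were −0.32 ± 0.48, 0.10 ± 0.48 and −0.22 ± 0.48 in the order DIA minus NOR, AAT minus DIA, AAT minus NOR, which is kept below. Their adjusted p was 0.82 or above.

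Fosl2, a Fos-related protein with slower and longer-lasting expression, was highest in AAT-treated fat. Its signal was 534 and 1492 in NOR, 1456 and 1419 in DIA and 2791 and 2620.41 in AAT. Both AAT-treated arrays lay above all others, while diabetic fat lay within the span of the normoglycemic arrays. AAT-treated fat exceeded normoglycemic fat by 1.51 ± 0.44, or 2.85-fold (adjusted p = 0.875), and diabetic fat by 0.88 ± 0.44 (adjusted p = 0.961). Without normoglycemic 1, at 534, the first of these was 0.83. It was 0.75 with the beta-actin ratio as a covariate, 0.67 as the mean over both probe sets and 0.87 without normoglycemic 1 and AAT-treated 2. Under none of these 4 settings was the unadjusted p under 0.05, as it was in 16 of 20 settings. The second was 1.79 with the covariate and 0.43 as the mean over probe sets. A second probe set of Fosl2, with signals of 292 to 368, differed by −0.14, −0.03 and −0.16 in the same order of comparisons, so the pair disagreed.

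Fosl1, a further Fos relative, was weak on all arrays. Its values were 57.02 and 24.4 in NOR, 38.7 and 120.3 in DIA and 102.85 and 33.3 in AAT, with overlapping groups. Its mean lay under the filter of 164, and in the fit of all genes without the filter it differed by 0.38 ± 0.43, −0.10 ± 0.43 and 0.28 ± 0.43.

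Jun, the main partner of Fos, varied as much within normoglycemic fat as between groups on the probe set that stood for it. Its signal was 282 and 1855 in NOR, 586 and 1125 in DIA and 2013 and 1366 in AAT. AAT-treated and diabetic fat did not overlap, whereas the normoglycemic arrays lay on either side of the diabetic ones. The differences were 0.10 ± 0.71 for diabetic against normoglycemic, 0.96 ± 0.71 for AAT-treated against diabetic (adjusted p = 0.985) and 1.07 ± 0.71 for AAT-treated against normoglycemic fat. With the beta-actin ratio as a covariate they were −4.01 ± 2.77, 3.21 ± 1.61 and −0.80. The direction of the first turned with the array left out, from 1.32 without normoglycemic 2 to −1.12 without normoglycemic 1. The second probe set of Jun, at 733 and 1016, 638 and 842, and 1877 and 1172 in the same groups, differed by −0.21, 0.95 and 0.73. On it both AAT-treated arrays lay above all others, so the pair disagreed on the overlap with normoglycemic fat.

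Junb, which pairs with Fos proteins and can hold back Jun, had its lowest signals in diabetic fat, as Fos did. Its signal was 313 and 519 in NOR, 149 and 276 in DIA and 472 and 464 in AAT. Both diabetic arrays lay below the other 4, and AAT-treated fat lay within the normoglycemic span. The differences were −0.78 ± 0.41 (adjusted p = 0.556), 0.96 ± 0.41 (adjusted p = 0.961) and 0.18 ± 0.41. The unadjusted p of the second was under 0.05 in 10 of 20 settings of the analysis. Without diabetic 1 the first was −0.45 and the second 0.63; the first was −0.47 without normoglycemic 2 and −1.56 with the beta-actin ratio as a covariate.

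Jund differed in another direction. Its signal was 2929 and 4701 in NOR, 6743 and 9169 in DIA and 6951 and 6723 in AAT. Both normoglycemic arrays lay below the other 4, and AAT-treated and diabetic fat overlapped. Diabetic exceeded normoglycemic fat by 1.07 ± 0.36, or 2.10-fold (adjusted p = 0.482), and AAT-treated exceeded normoglycemic fat by 0.87 ± 0.36 (adjusted p = 0.923). Without normoglycemic 1 these were 0.73 and 0.53, neither at an unadjusted p under 0.05, and with the beta-actin ratio as a covariate they were 0.18 and 0.47. A second probe set of Jund lay under the filter at 15.6 to 235 and differed by −0.06, −0.37 and −0.43. The summed signal of macrophage markers was also lowest in normoglycemic fat: for 9 of 9 listed genes it was 8402 and 7906 there, 16743 and 30440 in DIA and 18251 and 10885 in AAT. Against normoglycemic fat 8 of 9 were higher in diabetic fat (46.4% of all genes were) and 8 of 9 in AAT-treated fat (48%). The exceptions were Cd14 at −0.44 in the former and Adgre1 at −0.15 in the latter. The part of these markers in the Jund values was not tested.

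Maff, the small Maf protein, had the second-largest difference between AAT-treated and diabetic fat. Its signal was 116 and 420.2 in NOR, 92.5 and 142 in DIA and 772 and 546 in AAT. Both AAT-treated arrays lay above all others, and normoglycemic 1 lay between the diabetic arrays. AAT-treated exceeded diabetic fat by 1.93 ± 0.53, or 3.81-fold (adjusted p = 0.808), and normoglycemic fat by 1.24 ± 0.53 (adjusted p = 0.923). Diabetic against normoglycemic fat was at −0.69 ± 0.53 (adjusted p = 0.66). The last 2 values moved most with the beta-actin ratio as a covariate, to 0.01 and −3.39, and the difference from diabetic fat was then 3.41. They also moved with the array left out, to 0.55 and −1.38 without normoglycemic 1 and to 1.93 and −0.0016 without normoglycemic 2. The difference from normoglycemic fat had an unadjusted p under 0.05 in 6 of 20 settings.

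Atf3 and Batf showed no separation of groups. Atf3 signals were 102 and 497 in NOR, 356 and 275 in DIA and 339 and 238 in AAT, so the normoglycemic arrays held both the lowest and the highest value. Its differences were 0.29 ± 0.57, −0.11 ± 0.57 and 0.18 ± 0.57. Batf lay under the filter, with signals of 113 and 75.7, 20.6 and 136, and 26.8 and 171. In the fit without the filter Batf differed by −0.25 ± 0.56, 0.16 ± 0.56 and −0.09 ± 0.56.

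**Figure D2:**
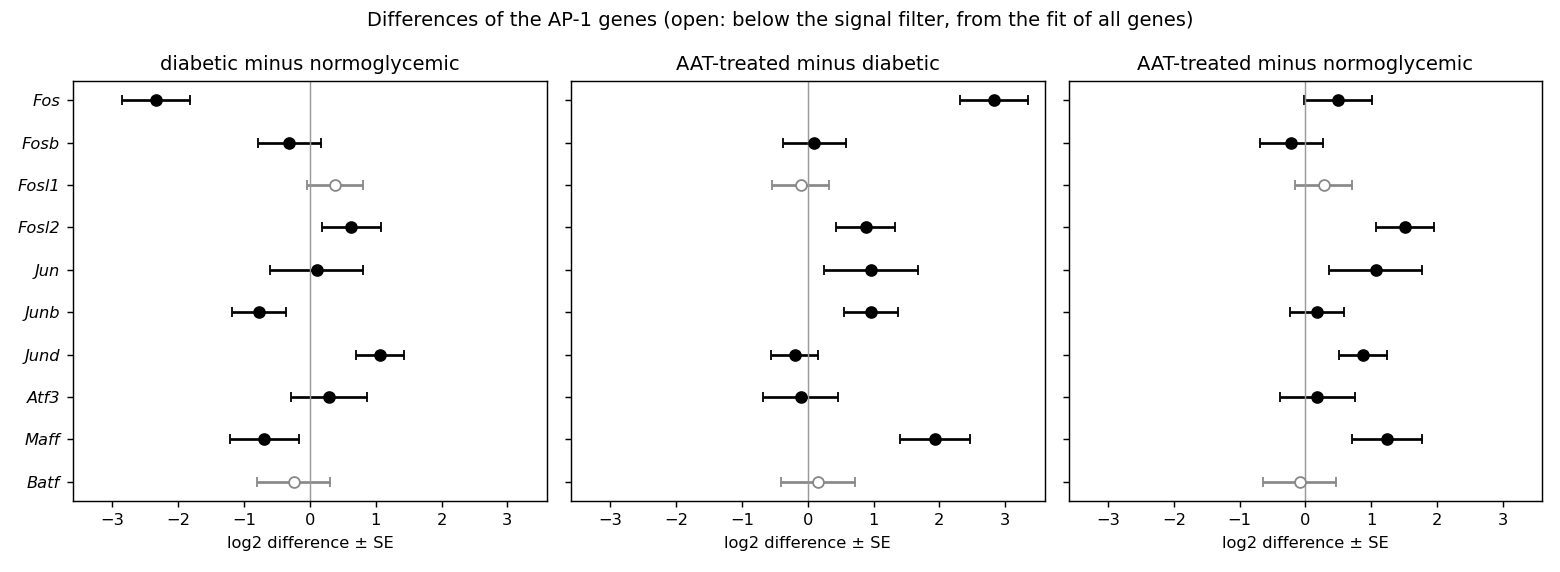
Log2 differences of the 10 AP-1 genes (x axis, log2 scale, ± moderated SE from limma) in the 3 comparisons; filled points are the 8 genes above the signal filter and open points the 2 below it, from the fit of all genes. Fos lies at −2.34 in diabetic against normoglycemic fat and at 2.83 in AAT-treated against diabetic fat, and Fosb and Atf3 lie near 0 in all 3.

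Each pair of the 3 comparisons shares the arrays of a group, so they are given side by side. Across the family 0 members passed the adjusted threshold of 0.05 in any comparison, as did 0 of 13058 genes (0%) by limma. In diabetic against normoglycemic fat 2 of the 8 members above the filter had an unadjusted p under 0.05 (Fos lower, Jund higher), where 9.89% of all genes did (4.62% lower, 5.27% higher). Groups did not overlap for Fos and Junb on the lower side (24.5% of genes) and for Jund on the higher side (20.2%). The median over all 10 members was −0.07, beside −0.08 over all genes without the filter, with 5 of 10 members higher, where 43.8% of those genes were. Without normoglycemic 2, 4 members had such a p, as with normoglycemic 1 and AAT-treated 2 both left out. The count was 1 without diabetic 2 and 0 with the beta-actin ratio as a covariate.

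In AAT-treated against diabetic fat 3 of 8 members had an unadjusted p under 0.05, all higher (Fos, Maff and Junb), where 4.78% of genes did (2.95% higher, 1.83% lower). In this comparison 5 of 8 members (Fos, Fosl2, Jun, Junb and Maff) did not overlap between the groups and were higher, a pattern shown by 17.9% of genes. The median over all 10 members was 0.52, beside 0.01 over all genes, and 7 of 10 were higher (50.7% of genes), with no member lower without overlap (15.9% of genes). The unadjusted p stayed under 0.05 in 20 of 20 settings for Fos and for Maff, with adjusted p of 0.194 or above and 0.269 or above. The count of members was 2 in 9 of the 20 settings, among them quantile normalization, the replicate block, the beta-actin covariate and the fits without diabetic 1, AAT-treated 1 or AAT-treated 2. It was 5 without normoglycemic 1, without normoglycemic 2 and with only these 4 arrays in the fit.

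In AAT-treated against normoglycemic fat 3 of 8 members had an unadjusted p under 0.05, all higher (Fosl2, Jund and Maff), where 5.15% of genes did (3.43% higher, 1.72% lower). Fos, Fosl2, Jund and Maff were higher without overlap, as were 16% of genes. The median over all 10 members was 0.38, beside −0.06 over all genes, and 8 of 10 were higher (44.8% of genes), with no member lower without overlap (16.1% of genes). The count was 0 without normoglycemic 1, without both normoglycemic 1 and AAT-treated 2, and with the beta-actin covariate. It was 1 without AAT-treated 1, without AAT-treated 2, with a covariate for the hybridisation controls and with the replicate number as a block. Normoglycemic 1 had the lowest signal of the 6 arrays for Fosl2, Jun, Jund and Atf3 and the highest for Fosb.

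**Figure D3:**
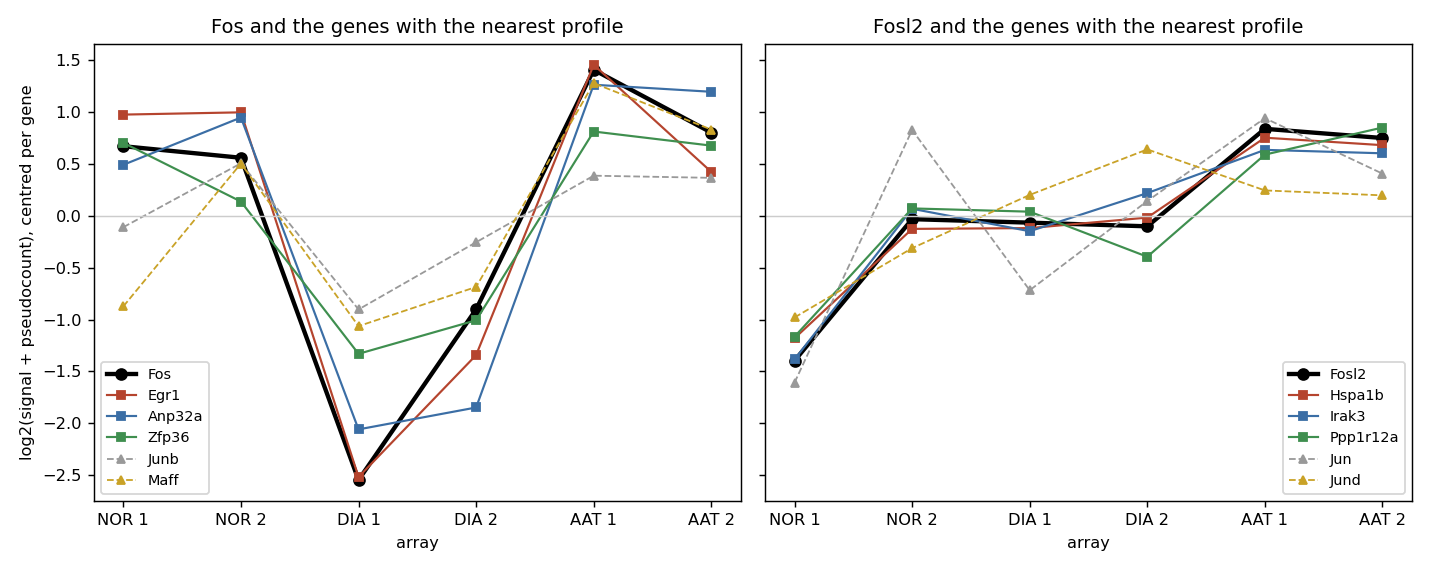
Log2(signal + 74), centred on each gene's mean, over the 6 arrays (x axis) for Fos (left) and Fosl2 (right), with the 3 genes of nearest profile (solid) and other AP-1 genes (dashed). Fos, Egr1, Anp32a and Zfp36 share low values on both diabetic arrays, and Fosl2 and its neighbours share a low value on normoglycemic 1 and high values on both AAT-treated arrays. The neighbours were picked for likeness on these same 6 arrays, so the sharing follows from the choice. Fosl2 is drawn from its probe set with the highest mean signal.

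Likeness between genes was measured as the root mean square difference between log2 profiles centred on their means over the 6 arrays, among 13057 other genes. The nearest to Fos was Egr1, a zinc finger immediate early factor, at 0.32, followed by Anp32a, a histone-binding acidic nuclear phosphoprotein, at 0.50 and Zfp36, which speeds the decay of AU-rich mRNAs, at 0.58. Among the AP-1 genes Maff (0.88, rank 63) and Junb (0.91, rank 92) were nearest to Fos, and Jund (1.59, rank 10884) was the farthest. Jun, at 1.30, ranked 3898. The nearest to Fosl2, the member with the smallest p in AAT-treated against normoglycemic fat, was the heat shock gene Hspa1b at 0.11, followed by Irak3, an inhibitor of Toll-like receptor signalling, at 0.17 and Ppp1r12a, the myosin phosphatase targeting subunit, at 0.20. Hspa1b signals were 928 and 2008 in NOR, 2019 and 2172 in DIA and 3758 and 3571 in AAT. The nearest AP-1 genes to Fosl2 were Jun at 0.48 and Jund at 0.51, and Fos was the farthest at 1.40.

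**Figure D4:**
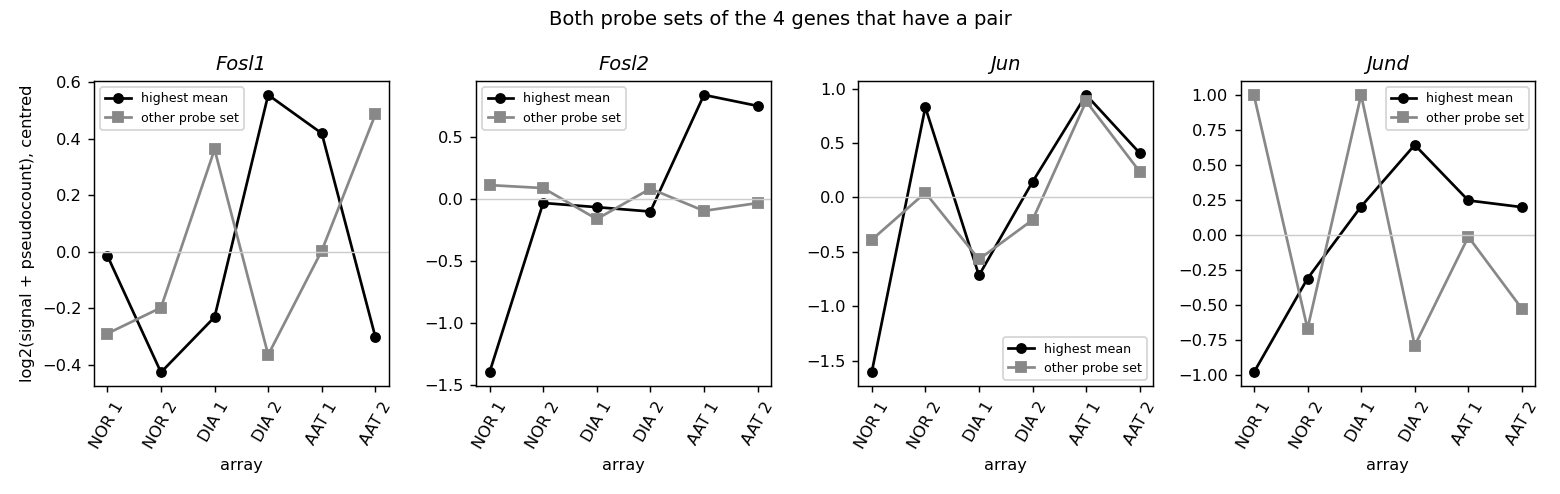
Log2(signal + 74), centred on each probe set's mean, over the 6 arrays (x axis) for both probe sets of Fosl1, Fosl2, Jun and Jund; black is the one with the highest mean signal. The pair of Jun parts most on both normoglycemic arrays, and the second probe set of Fosl2 stays within a narrow range on all arrays.

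Immediate early genes outside the family were examined beside Fos. Of 21 measured genes 18 were lower in diabetic than normoglycemic fat, 5 of them at an unadjusted p under 0.05 and 0 after adjustment. Of all genes above the filter 46.4% were higher in this comparison and 4.62% were lower at such a p. In AAT minus DIA 19 of 21 were higher (51.2% of genes), again 5 at an unadjusted p under 0.05 (2.95% of genes) and 0 after adjustment. Medians were −0.43 and 0.49, and 0.30 for AAT-treated against normoglycemic fat, where 12 of 21 were higher (48% of genes). Egr1 signals were 7993 and 8115 in NOR, 640.42 and 1541 in DIA and 11184.5 and 5425 in AAT. Zfp36 signals were 3658 and 2447, 837 and 1066, and 3953 and 3590.19. For both genes the diabetic arrays lay below the other 4. In the same 3 comparisons Egr1 differed by −2.92 ± 0.49, 2.87 ± 0.49 and −0.05 ± 0.49, and Zfp36 by −1.59 ± 0.33, 1.92 ± 0.33 and 0.32 ± 0.33. Ier2, a rapidly induced nuclear protein, differed by −1.15 ± 0.39 and 1.68 ± 0.39 in the first and second. The MAP kinase phosphatase Dusp1 differed by −1.40 ± 0.41 and 1.32 ± 0.41, and Myc, with 527 and 465, 155 and 150.1, and 343 and 492, by −1.33 ± 0.37 in the first. The nuclear receptor Nr4a1 did not follow them, at −0.22 ± 0.44 and 0.09 ± 0.44.

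Other basic leucine zipper genes that can pair with AP-1 or Maf proteins were split. Of 12 measured 6 were higher and 6 lower in diabetic against normoglycemic fat (median −0.04), where 46.4% of all genes were higher. In AAT-treated against diabetic fat 7 were higher (median 0.05), where 51.2% of genes were. Mafg, a small Maf like Maff, went against it, with signals of 586 and 745 in NOR, 1381 and 1434 in DIA and 1018 and 756 in AAT. It differed by 1.01 ± 0.32 (adjusted p = 0.482) and −0.64 ± 0.32. Mafk, the third small Maf, differed by −0.68 ± 0.33 and 0.86 ± 0.33, the same directions as Maff. Atf2, a partner of Jun, differed by −0.68 ± 0.36 in the first comparison, and Nfe2l2, the oxidative stress factor that pairs with small Maf proteins, by 0.84 ± 0.33 in the second. Of these 12 genes 1 in the first and 2 in the second comparison had an unadjusted p under 0.05, beside 9.89% and 4.78% of all genes, and 0 passed after adjustment.

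Kinases upstream of AP-1 were mostly higher in diabetic fat. Of 9 measured 8 were higher in diabetic against normoglycemic fat (median 0.40) and 8 were lower in AAT-treated against diabetic fat (median −0.35), where 46.4% and 51.2% of all genes were higher. There was 1 at an unadjusted p under 0.05 in the first (5.27% of genes higher) and 0 in the second (1.83% lower). The Jun kinase Mapk8 was at 248 and 455 in NOR, 869 and 788 in DIA and 674 and 599 in AAT. It differed by 1.13 ± 0.35 in the first comparison (adjusted p = 0.482). The Jun-kinase cascade gene Map3k1 differed by 0.73 ± 0.41 there. Map2k1, of the ERK cascade, was the exception to both directions, at −0.60 ± 0.32 and 0.47 ± 0.32. The stress kinase Mapk14 differed by −0.71 ± 0.32 in the second comparison, and Map2k2 by −0.44 ± 0.31.

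Among 16 factors that induce AP-1 genes or limit their products, 10 were lower in diabetic against normoglycemic fat (median −0.17). In AAT-treated against diabetic fat 12 were higher (median 0.33). Of all genes 46.4% were higher in the first comparison and 51.2% in the second. At an unadjusted p under 0.05 there were 2 lower in the first comparison (4.62% of genes) and 1 higher in the second (2.95% of genes); Zfp36, listed here too, was in both. Cop1, a ubiquitin ligase that marks Jun for degradation, was at 3316 and 2948 in NOR, 1570.4 and 1873 in DIA and 2344 and 2495 in AAT, and differed by −0.84 ± 0.30 (adjusted p = 0.482) in the first. Itch, another Jun ligase, differed by −0.70 ± 0.34 in the first. Srf, the serum response factor that drives Fos, differed by 0.80 ± 0.36 (adjusted p = 0.961) in the second, and the mRNA decay factor Zfp36l2 by 0.72 ± 0.38.

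Known AP-1 target genes showed no common direction in diabetic fat. Of 16 measured 10 were lower there than in normoglycemic fat (median −0.14), where 46.4% of all genes were higher. Of the 16, 0 had an unadjusted p under 0.05. The members of smallest p were Hmox1 (haem oxygenase) at −0.60 ± 0.41, Mmp14 at 0.39 ± 0.37 and Plau (urokinase) at −0.36 ± 0.35. In AAT minus DIA 11 of 16 were higher (median 0.40), beside 51.2% of all genes, and 8 of 16 were higher without overlap, beside 17.9%. Of the 16, 1 (Mmp14) had an unadjusted p under 0.05, beside 4.78% of genes. The membrane protease Mmp14 was at 859 and 954 in NOR, 1697 and 850.1 in DIA and 2383 and 2688 in AAT. It differed by 1.03 ± 0.37 from diabetic (adjusted p = 0.961) and by 1.41 ± 0.37 from normoglycemic fat (adjusted p = 0.87). The cell cycle inhibitor Cdkn1a differed by 1.40 ± 0.71 and Mmp9 by 0.91 ± 0.50 from diabetic fat. The targets Mmp10, Mmp13, Ptgs2, Il6 and Ccl2 lay under the filter.

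Markers of other cells moved with some of these values. Smooth muscle markers, 8 of 8 measured, summed to 8166 and 32555 in NOR, 15624 and 10731 in DIA and 62865 and 96494 in AAT, the group in which Fosl2 and Maff were highest. The sums that follow take in every listed gene on the array, also those under the filter. Red cell and platelet markers, 6 of 8 on the array and 5 above the filter, summed to 9668 and 10424, 3029 and 3931, and 9825 and 4575. These sums were lowest on the diabetic arrays, as Fos was. All 5 were lower in diabetic than normoglycemic fat (46.4% of all genes were higher), and 3 were higher in AAT-treated than diabetic fat (51.2%). The exceptions in the latter were Pf4 at −0.04 and Itga2b at −0.12. B and plasma cell markers, 6 of 7 on the array and 4 above the filter, summed to 1802 and 1592, 1380.0 and 5668, and 30289 and 11103. T cell markers had 1 of 7 genes above the filter and summed to 460.0 to 1203, neutrophil markers 3 of 6 (550.0 to 1257) and skeletal muscle markers 3 of 6 (690.0 to 4339), without a common order with Fos. No listed marker was at 0 on any array, which does not show that it was expressed, as detection calls were not used. The part of these cells in the AP-1 values was not tested.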

How the data were processed

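Per the labels, total RNA was extracted with Trizol, labelled with biotin by the single-cycle Affymetrix protocol and hybridised, 1 sample per array. The deposited values are linear intensity values (the submitters' processing notes name MAS5, without a version). The authors' scaling, to a common trimmed mean of 500.00 per array, was kept. MAS5 treats each array alone, and detection calls were not used. Median signals were 175.69 to 272; precision is limited by how few arrays there are. Of the probe sets, 34945 had 1 gene symbol in the platform annotation, 932 several and 9160 none, apart from 64 controls; 34741 matched the RefSeq table, and 0 symbols changed. Values were analysed as log2(signal + 74), 74 being the 25th percentile, which understates differences of weak genes. Genes above a mean signal of 164 (the 40th percentile) were kept, 13058 in number. The test of each difference was limma 3.58.1 under R 4.3.3 (3 group means, 6 arrays, trended eBayes, 2-sided, Benjamini-Hochberg adjustment), with 3 residual and 5.37 prior degrees of freedom. The robust fit used statmod 1.5.0. A check on simulated data drew normal values with the spread of the fit itself, so it cannot speak to uneven array quality. An exact permutation test of 2 against 2 arrays cannot go below 0.333, so none was run. The members and lists were chosen with earlier results of these data known. The text names all members and, from each list, the 3 genes of smallest p in diabetic against normoglycemic and in AAT-treated against diabetic fat, with Egr1, Nr4a1, Dusp1, Zfp36 and Ier2, and the 3 genes of profile nearest to Fos and to the member of smallest p in a comparison.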

Additional observations from a re-analysis of the deposited data

How the results depend on the processing

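Over the 18 alternatives planned and 1 chosen after seeing the data (both arrays with the brightest hybridisation controls, normoglycemic 1 and AAT-treated 2, left out), Fos, Junb, Jund and Maff kept their directions in diabetic against normoglycemic fat, Fos, Fosl2, Jun, Junb and Maff theirs in AAT-treated against diabetic fat, and Fosl2, Jund and Maff theirs in AAT-treated against normoglycemic fat. Other filters, other estimates of the spread and the replicate block leave a member's difference as it was, so they cannot turn its direction. Leaving out 1 array cannot turn a difference whose groups do not overlap. The sizes of these members' differences did not all keep. Maff in the last was 0.01 with the beta-actin covariate, against 1.24. In the first it was −0.0016 without normoglycemic 2, against −0.69. Differences that changed direction, and counts and medians that moved, follow, each comparison in the order diabetic against normoglycemic, AAT-treated against diabetic, AAT-treated against normoglycemic. Where a direction turned the cause was not tested. With 1 array left out, the lone array of its group is assumed to vary like the others. Members at an unadjusted p under 0.05 then numbered 1 to 4, 2 to 5 and 0 to 4, and the medians over members ran from −0.41 to 0.23, 0.29 to 0.80 and 0.36 to 0.76. Genes past the adjusted threshold were 0, 0 and 0 to 3 (Myh11, Ephx1 and Phf3, without normoglycemic 2). Fosb ran from −0.77 to 0.14, −0.24 to 0.44 and −0.67 to 0.24. Fosl1 ran from −0.011 to 0.78, −0.50 to 0.29 and −0.082 to 0.64. Atf3 ran from −0.56 to 1.14, −0.31 to 0.092 and −0.67 to 1.03, and Batf from −0.82 to 0.33, −0.48 to 0.80 and −0.73 to 0.55. Fosl2 ran from −0.051 to 1.31 and Jun from −1.12 to 1.32 in the first; Jund from −0.42 to 0.020 in the second; Jun from −0.15 to 2.28 and Junb from −0.13 to 0.49 in the third.

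The beta-actin ratio as a covariate moved the median of all genes to 0.32, −0.14 and 0.18, and the median over members to −1.39, 1.41 and −0.082; members at an unadjusted p under 0.05 numbered 0 in the first and 0 in the third. It turned Fosb to 2.42, −1.39 and 1.02, Fosl1 to −1.23, 0.77 and −0.45, Atf3 to −2.54, 1.44 and −1.11 and Batf to 3.40, −1.83 and 1.56. The SE were wide, at 2.77 for Jun and 1.98 for Batf in the first, as the ratio went with the groups. Fosl2 became −1.04 and Jun −4.01 in the first, Jund 0.28 in the second, and Fos −0.29, Jun −0.80 and Junb −0.18 in the third. The hybridisation control level as a covariate gave 1 gene past the adjusted threshold in the first (Hbb-b2) and 1 in the second (Anp32a), and 1 member at an unadjusted p under 0.05 in the third. It turned Fosb to 0.22, −0.080 and 0.14, Atf3 to −0.36, 0.11 and −0.26, Batf to 0.47, −0.079 and 0.39, and Jun to −0.61 in the first. With both bright arrays left out the members at an unadjusted p under 0.05 numbered 4 in the first and 0 in the third; Fosb was 0.14 and −0.24, Atf3 −0.56, 0.092 and −0.47, Fosl2 −0.051 and Jun −1.12 in the first, Fosl1 0.26 and Batf −0.48 in the second, and Junb −0.12 in the third. With no filter 1 gene passed in the second (Anp32a). With only the 2 groups compared 5 members had an unadjusted p under 0.05 in the second. The mean over probe sets gave Jun −0.056 in the first and Fosl1 0.071 in the second. The arrays share only a replicate number: their deviations correlated at 0.075, −0.116 and −0.505 between groups, and with the number as a block 1 member had an unadjusted p under 0.05 in the third comparison, and no adjusted call changed.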
